A study of Rattus norvegicus with 4 samples.

Results

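The genes described here encode the machinery that docks, primes and fuses vesicles with a target membrane. They were chosen by symbol: synaptotagmins (Syt), syntaxins (Stx), syntaxin-binding proteins (Stxbp), the SNAP-25 family (Snap), VAMPs and synapsins (Syn) with a number after the prefix, and 17 further named genes for vesicle proteins, complexins, Rab3 proteins and the NSF complex. Of the 17, Syngr2 had no row, and the rule gave 69 genes of 14485 in all. RNA sequencing had been done on eye and on retina of rats of the pigmented Long Evans strain, with wild-type genotype and no treatment named. The labels list 2 technical replicates per tissue, and every library was made from pooled RNA of 5 rats. There was 1 column of values for each tissue, called its library here, which may hold either or both of the technical replicates. Thus the differences below come without replicates and without p-values. The tissue labels separate eye from retina, whereas the description field of every sample names retina mRNA. Each library goes here by its tissue label.

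Values are taken as RPKM, reads scaled by the length of the gene model and by the reads of the library, a unit inferred from the values. Whole reads that fit the decimals were found for 68 of the 69 genes, against totals of 28071917 reads in eye and 51944762 in retina. They are the smallest that fit, so the true reads may be a multiple of them and the true intervals narrower. Intervals on folds are exact 95% Clopper-Pearson intervals from those reads and cover counting error only. A gene was tested if its value reached 1 in either library, and called if log2((eye + 0.1)/(retina + 0.1)) passed a fold of 2. Folds of single genes are given on the values as deposited. All 6 rod markers analysed were higher in the retina library, 4 of them called. Markers of lens (8 of 8), skeletal muscle (8 of 8), stroma (5 of 5), pigment cells (6 of 6), myelin (7 of 7) and corneal and conjunctival epithelium (5 of 6) were called higher in the eye library. In bulk RNA, fewer cells of a type and less RNA per cell cannot be told apart.

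At a synapse, a SNARE protein of the vesicle (a VAMP) pairs with a syntaxin and a SNAP-25 family protein of the target membrane, and the zippering of the complex drives fusion. Several synaptotagmins sense calcium, complexins clamp or promote the complex, Munc18 proteins guide syntaxin, and NSF with its adaptors takes the spent complex apart. Rods, cones and bipolar cells release glutamate continuously at ribbon synapses, while amacrine cells use conventional ones. Related SNAREs run traffic between the Golgi, endosomes, lysosomes and the surface in every cell.

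Most genes of the release machinery had their higher values in the retina library, while Vamp5, Syt8, Vamp8, Sypl1, Vamp3 and Snap23 were called higher in the eye library. Of 65 tested genes, 46 (70.8%) had the higher value in retina and 19 in eye, beside 6717 (50.7%) in retina over all 13259 tested genes. In all, 12 genes (18.5%) were called lower in eye, against 7.95% of all tested genes. At the other end 6 (9.23%) were called higher, against 17.8% of all tested genes. The median log2 fold was -0.51, beside -0.01 over all tested genes. A further 18 genes were at least 1.5-fold and under 2-fold lower in eye, and 2 (Stx7 and Stx17) were likewise higher. The share of all tested genes in these bands was not counted, so the 2 numbers only describe the set.

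The counts of called genes moved with the scaling between the libraries. Without the lens genes in the totals, 3 genes (4.62%) were lower (Slc17a7, Syt7 and Syt13), close to the 4.12% of all tested genes, and 7 (10.8%) were higher, against 21.3%. With equal summed values 39 (60.0%) were lower, against 31.9% of all genes, and 3 (4.62%) were higher (Vamp5, Vamp8 and Syt8), against 11.5%. The number with the higher value in eye went from 19 to 23 without lens genes in the totals, and to 8 with equal summed values, as 4 and 11 genes changed order. Of the called genes, 33.3% were higher in eye with the values as deposited, 70.0% without lens genes in the totals, and 7.14% with equal summed values. Over all tested genes, those called higher and lower in eye numbered 2366 and 1054, 2821 and 546, and 1519 and 4232, in the same order. These scalings moved the median of all genes to 0.18 and -0.64. The median of the SNARE, synaptotagmin and vesicle genes was 0.49 below it under both. With the values as deposited this difference was -0.49 too. A scaling multiplies all eye values by the same factor and so moves both medians nearly alike. The difference therefore had to stay close to -0.49, and it does not test the choice of scaling.

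**Figure D1:**
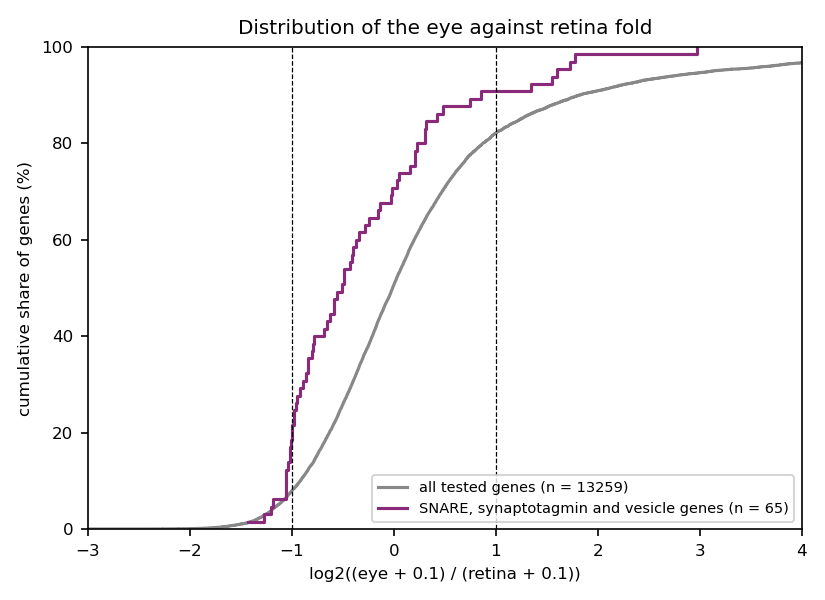
Cumulative share of genes (vertical axis, percent) against log2((eye + 0.1)/(retina + 0.1)) for 65 SNARE, synaptotagmin and vesicle genes and all 13259 tested genes, with dashed lines at a fold of 2. The curve of the 65 genes lies to the left over most of the range, with a median of -0.51 against -0.01, and steepens just around the lower line.

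Slc17a7 stood at the lower end of all 65. It encodes VGLUT1, the transporter that fills synaptic vesicles of photoreceptors and bipolar cells with glutamate. Its value was 727 in retina, where it ranked 19 among all genes, and 270 in eye, 2.69-fold lower (2.65 to 2.74). No other gene lower in eye reached a fold of 2.5. Syp, the vesicle membrane protein synaptophysin, was at 486 in retina (rank 36) and 234 in eye, 2.08-fold lower (2.04 to 2.12). Stx3, the plasma membrane syntaxin of ribbon synapses, was at 197 and 97.1, 2.03-fold lower (1.95 to 2.12). Leaving the lens genes out of the totals kept the call of Slc17a7 and ended those of Syp and Stx3.

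The 300 bases around the annotated start sites of 4 genes are shown because these genes were called in opposite directions: Slc17a7 and Stx3, lower in the eye library, and Vamp5 and Vamp8, higher there. They come from RefSeq on the GRCr8 assembly, a later build than the rn4 of the submitters' processing notes, and run from 250 bases before to 50 after the start. Positions are chr1:104785955-104786254 on the plus strand for Slc17a7, and chr1:218110417-218110716, chr4:105993198-105993497 and chr4:106005593-106005892 on the minus strand for the others. Capitals mark GC boxes, the letters GGGCGG on either strand, which neighbouring matches may share.
Slc17a7: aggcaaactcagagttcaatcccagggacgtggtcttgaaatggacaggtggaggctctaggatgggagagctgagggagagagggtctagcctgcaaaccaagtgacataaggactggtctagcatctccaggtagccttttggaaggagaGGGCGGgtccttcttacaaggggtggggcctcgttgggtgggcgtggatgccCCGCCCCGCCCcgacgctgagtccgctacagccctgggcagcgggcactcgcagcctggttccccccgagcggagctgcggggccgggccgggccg
Stx3: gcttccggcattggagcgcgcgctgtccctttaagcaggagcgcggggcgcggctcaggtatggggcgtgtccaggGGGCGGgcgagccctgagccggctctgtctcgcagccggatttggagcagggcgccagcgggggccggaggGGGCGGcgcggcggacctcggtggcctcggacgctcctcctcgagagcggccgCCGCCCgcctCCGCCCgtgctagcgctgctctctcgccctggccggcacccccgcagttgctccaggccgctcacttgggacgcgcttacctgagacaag
Vamp5: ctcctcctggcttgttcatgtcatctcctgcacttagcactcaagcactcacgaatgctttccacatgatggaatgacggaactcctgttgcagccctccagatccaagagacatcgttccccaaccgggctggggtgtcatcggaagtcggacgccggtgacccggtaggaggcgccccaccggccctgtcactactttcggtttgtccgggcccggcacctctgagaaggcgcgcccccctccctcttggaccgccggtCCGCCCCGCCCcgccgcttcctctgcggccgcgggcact
Vamp8: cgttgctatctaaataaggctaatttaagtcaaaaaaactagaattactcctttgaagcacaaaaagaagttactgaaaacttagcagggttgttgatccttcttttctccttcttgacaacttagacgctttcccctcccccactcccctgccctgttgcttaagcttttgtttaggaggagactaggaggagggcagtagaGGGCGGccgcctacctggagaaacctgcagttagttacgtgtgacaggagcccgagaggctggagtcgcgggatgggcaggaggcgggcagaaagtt
Slc17a7 holds 3 GC boxes, Stx3 4, Vamp5 2 and Vamp8 1. Vamp5 and Vamp8 are next to each other in the RefSeq annotation. The table held a promoter for 53 of the 69 genes. A GC box was found in 69.8% of the 53, in 62.2% of 9251 promoters of tested genes and in 34.9% of all 27457 promoters. The photoreceptor homeobox core TAATCC was found on either strand in 0 of the 53 and in 5.34% of the promoters of tested genes. An E-box CAGCTG was found in 32.1% and 16.8%, a CRE core TGACGT in 15.1% and 11.1%, and a TATA box TATAAA in 5.66% and 6.85%. Matches of letters in a window this short describe the sequence and show no binding.

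Synaptotagmins, a family that includes calcium sensors, had the higher value in retina in 13 of 15 tested cases, with a median log2 fold of -0.79. Of the 15, 5 (33.3%) were called lower and 1 (6.67%) higher, beside 7.95% and 17.8% of all tested genes. Syt1, the fast sensor of synaptic release, was the most abundant at 149 in retina and 86.1 in eye, 1.74-fold lower (1.62 to 1.86). It held 38.6% of the summed synaptotagmin value in retina and 38.2% in eye. Syt7, a slower sensor of high calcium affinity, was at 26.6 and 10.9, 2.43-fold lower (2.19 to 2.71). Syt13, which lacks calcium binding, was at 41.5 and 17.9, 2.32-fold lower (2.12 to 2.53). These 2 folds were the largest in the family toward retina, and their calls were kept without lens genes in the totals.

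The other synaptotagmins called lower were less abundant. Syt3 was at 12.1 in retina and 5.76 in eye, Syt12 at 6.44 and 3.04, and Syt6 at 5.05 and 2.47. They were 2.11-fold, 2.12-fold and 2.05-fold lower, their intervals all reached below 2, and none was called with 1 added to each value. Syt11 was at 55.1 and 36.7 and Syt4 at 29.7 and 23.4, both relatives with altered calcium binding. Syt15 was at 23.5 and 12.9, Syt9 at 17.6 and 8.85 and Syt5 at 11.7 and 9.88. Syt2, a close relative of Syt1, was at only 3.39 and 2.16 (1.57-fold, 1.21 to 2.06), and Syt16 at 2.97 and 1.99. Syt17 was at 1.17 and 1.48, an order that turned with equal summed values. Syt8 was called higher in eye, at 1.08 against 0.243. The smallest reads that fit were 12 and 5, which gave its 4.44-fold difference an interval of 1.46 to 16.1. It was not called with 1 added to each value, and a minimum of 5 left it out. Syt10 fell below the minimum of 1, at 0.453 and 0.521.

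Syntaxins held genes of both directions, with 5 of 12 tested at a higher value in retina and 7 in eye. Among those of the plasma membrane, Stx3 held 44.0% of the summed syntaxin value in retina and 26.7% in eye. Stx1a, a syntaxin of conventional synapses, was listed at 0 in both libraries, and no level is read from that. Stx4, a surface syntaxin of many cell types, was at 30.9 and 43.3 (1.40-fold, 1.30 to 1.51), and Stx2 at 6.13 and 6.02. The value of Stx4 was higher in eye except with equal summed values.

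Next came the syntaxins of inner membranes. Stx12, of recycling endosomes, was at 52.8 in retina and 61.7 in eye. The Golgi genes Stx5, Stx6 and Stx16 were at 34.6 and 28.3, 20.7 and 21.1, and 20.2 and 11.2, and Stx18, of the endoplasmic reticulum, at 15.5 and 17.4. Stx7, of late endosomes, was at 20.7 and 37.7, 1.82-fold higher in eye (1.71 to 1.93), and it was called only without lens genes in the totals. Stx8, its endosomal partner, was at 12.3 and 16.5, and Stx17, of autophagosomes, at 2.94 and 5.00. Below the minimum were Stx19, at 0.457 and 0.302, and Stx11, a syntaxin of cytotoxic lymphocytes, at 0.0356 and 0.791 on 3 and 36 reads. Of 12 tested syntaxins 1 (Stx3), or 8.33%, was called lower, near the 7.95% of all tested genes, and 0 were called higher, against 17.8%.

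**Figure D2:**
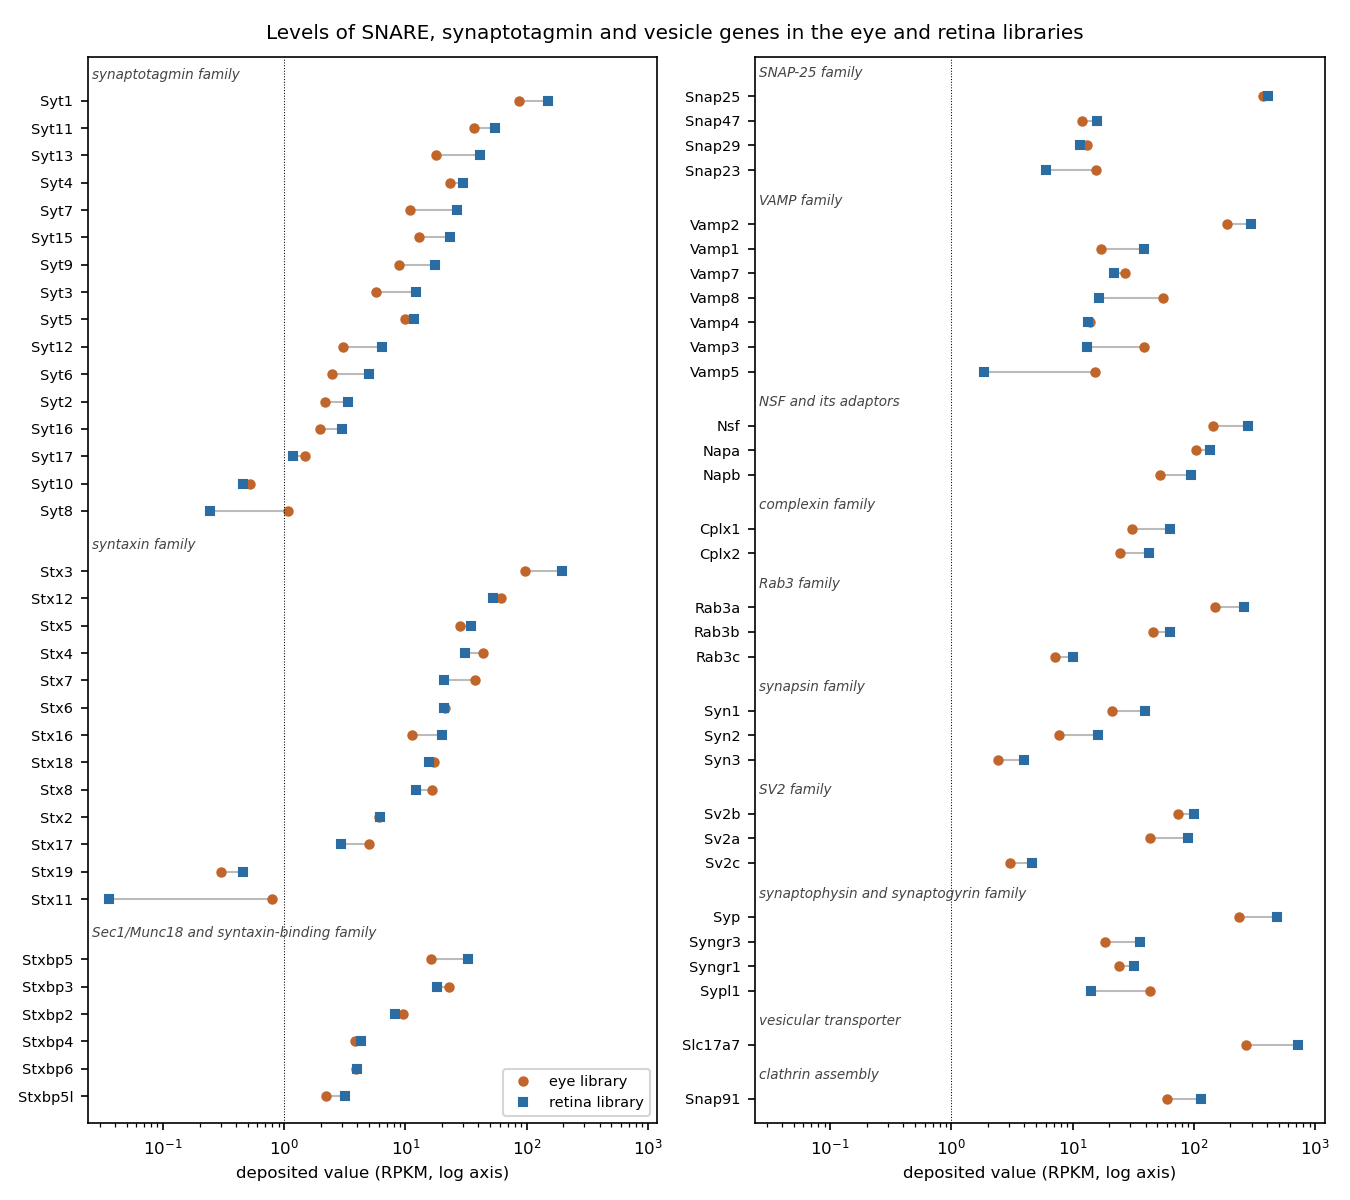
Deposited value (RPKM, log axis) of 66 genes by family in the eye library (circles) and the retina library (squares), each point 1 column of values, with a dotted line at the minimum of 1; Stx1a, listed at 0 in both, is left out. Slc17a7 is highest at 727 in retina. Vamp3, Vamp5, Vamp8, Snap23 and Sypl1 are among the genes in the reverse order, with the eye value on the right.

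Partners of syntaxin, 7 genes, held no call in either direction, beside 7.95% of all tested genes called lower and 17.8% called higher. Stxbp5 (tomosyn), which competes with VAMPs for syntaxin, was at 32.7 in retina and 16.3 in eye. Its fold of 2.00 (1.90 to 2.11) missed the call once 0.1 was added. Stxbp3 and Stxbp2, the Munc18 forms of non-neuronal cells, were at 18.3 and 22.7 and at 8.26 and 9.57, 1.24-fold (1.16 to 1.33) and 1.16-fold (1.04 to 1.29) higher in eye except with equal summed values. The less abundant Stxbp4, Stxbp6 and Stxbp5l were at 4.28 and 3.83, 3.97 and 3.91, and 3.15 and 2.22, and for Stxbp4 and Stxbp6 the interval of the fold held 1.

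In the SNAP-25 family the 2 leading surface members differed in direction. Snap25, the neuronal form, was at 410 in retina and 373 in eye, only 1.10-fold apart (1.08 to 1.12), and held 92.5% and 90.2% of the summed family value. It was the smallest difference among the 12 genes that reached 100 in retina, whose median log2 fold was -0.86. With totals that leave out lens genes its sign changed. Snap23, the form found in most tissues, was at 6.03 and 15.5, called higher in eye by 2.57-fold (2.30 to 2.87), though not with equal summed values. Snap47 was at 15.8 and 12, and Snap29, of endosomes and autophagosomes, at 11.4 and 13.2.

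VAMPs held the widest spread, from 2.28-fold lower to 8.20-fold higher in the eye library. Vamp2, the main vesicle SNARE of neurons, was at 298 in retina and 189 in eye, 1.58-fold lower (1.55 to 1.61). Vamp1, its neuronal paralog, was at 39.0 and 17.1, 2.28-fold lower (2.15 to 2.43) and called. Vamp3 (cellubrevin), the counterpart in non-neuronal cells, was at 13.2 and 39.0, 2.95-fold higher in eye (2.74 to 3.18). Vamp8 (endobrevin), of secretory and endosomal fusion, was at 16.6 and 55.1, 3.33-fold higher (2.85 to 3.88).

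Vamp5 (myobrevin), best known from muscle, was at 1.87 in retina and 15.3 in eye, 8.20-fold higher (5.49 to 12.6), on 30 and 133 reads. With 0.1 added it was the only one of the 65 called at a fold of 4 (1.54%), against 9.07% of all tested genes called higher. Vamp7, of lysosomal and surface traffic, was at 21.9 and 27.1, and Vamp4, of the trans-Golgi network, at 13.3 and 13.8. Vamp2 made up 73.8% of the summed VAMP value in retina and 53.0% in eye, whereas Vamp8 made up 4.10% and 15.5%, Vamp3 3.28% and 11%, and Vamp5 0.463% and 4.31%. Such shares are taken within a library and do not depend on the scaling between libraries. The calls of Vamp5 and Vamp8 were kept under every scaling tried, and that of Vamp3 was lost with equal summed values.

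The marker lists of other tissues lay in the same direction as the genes called higher in eye. The summed value of the 8 skeletal muscle markers was 2744 in eye and 13.0 in retina, that of the 5 stroma markers 2014 and 7.40, and that of the 6 corneal and conjunctival markers 4799 and 115. Pax6, a corneal marker that retina also expresses, held 96.7 and 111 of the last sums, and the other 5 summed to 4703 in eye and 4.16 in retina. The 5 immune markers summed to 116 and 16.9, with 4 of 4 tested called higher. Retina values of the gland markers Pigr and Ltf were listed at 0, and their eye values were 1.12 and 0.0129. Their part in the values of Vamp3, Vamp5, Vamp8, Snap23 and Sypl1 was not tested.

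**Figure D3:**
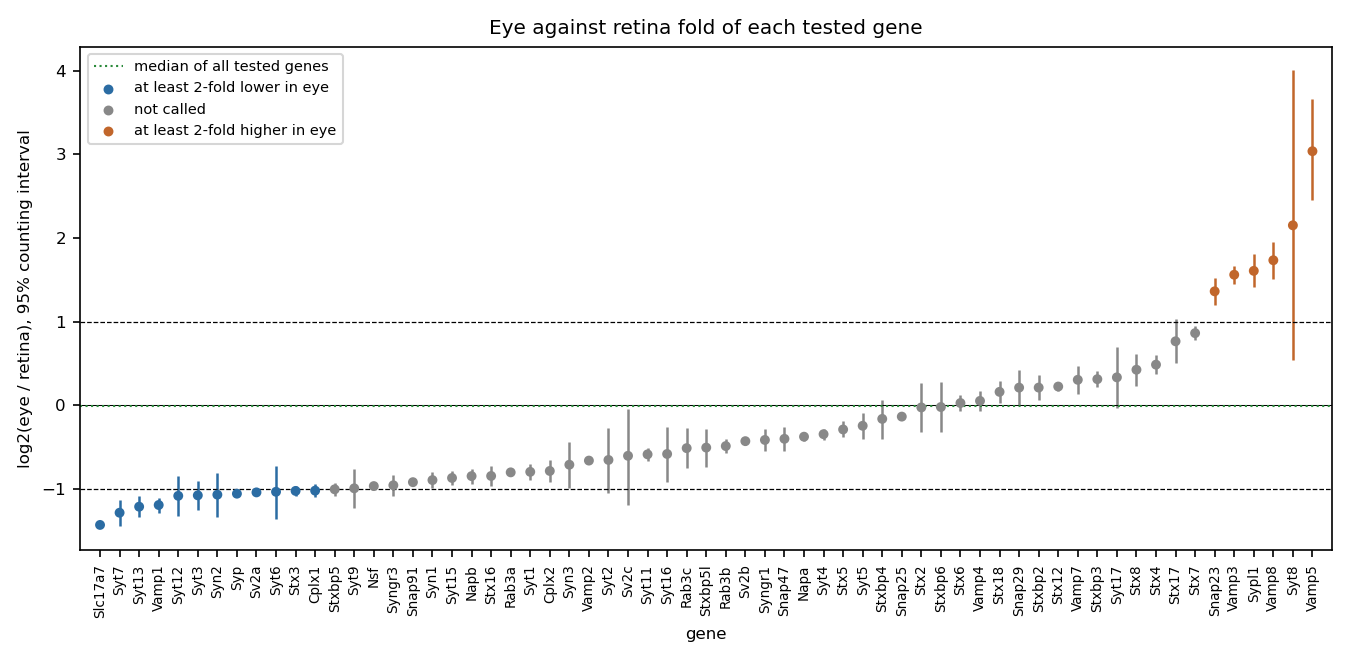
log2 of the eye to retina ratio (vertical axis) of 63 of the 65 tested genes in rank order, with exact 95% counting intervals as bars, dashed lines at a fold of 2 and a dotted line at the median of all tested genes. The left side from Slc17a7 to Cplx1 holds the 12 genes called lower, the plateau near the lower line holds Stxbp5, Syt9 and Nsf, and 6 genes stand above the upper line, with the widest interval for Syt8.

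Each of the 8 genes that recycle and regulate the complex had its higher value in retina under all scalings tried. Nsf, the ATPase that separates spent SNARE complexes, was at 280 in retina and 143 in eye, 1.95-fold lower (1.91 to 1.99). Its adaptors Napb, mainly of brain, and Napa, of all cells, were at 94.1 and 52.3 (1.80-fold, 1.69 to 1.91) and at 136 and 105 (1.30-fold, 1.25 to 1.34). Complexins Cplx1 and Cplx2 were at 63.2 and 31.2 and at 42.7 and 24.8, and Cplx1 was called, 2.03-fold lower (1.92 to 2.14), while Cplx2 was 1.72-fold lower (1.57 to 1.89). Rab3a, the main Rab GTPase of synaptic vesicles, was at 261 and 150, 1.74-fold lower (1.69 to 1.79). Rab3b was at 64.1 and 45.8 (1.40-fold, 1.32 to 1.49) and Rab3c at 10.1 and 7.11.

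Proteins of the vesicle itself included synapsins, SV2 proteins and synaptogyrins. The synapsins, which tether vesicles in conventional terminals, were at 39.3 in retina and 21.1 in eye for Syn1, 16.1 and 7.69 for Syn2, and 3.95 and 2.41 for Syn3. Syn1 was 1.86-fold lower (1.74 to 1.99). Syn2 was called, 2.10-fold lower (1.75 to 2.52), but not with 1 added. Among the SV2 glycoproteins, Sv2b was at 100 and 74.4, Sv2a at 90.2 and 43.8 and Sv2c at 4.58 and 3.02. Sv2a was called, 2.06-fold lower (1.99 to 2.13), and Sv2b differed by 1.35-fold (1.30 to 1.39). Synaptogyrins Syngr3 and Syngr1 were at 35.9 and 18.5 and at 32.2 and 24.2. Snap91, which shares only its prefix with the SNAREs and encodes the clathrin adaptor AP180, was at 114 and 60.4, 1.89-fold lower (1.83 to 1.95). Sypl1 (pantophysin), the form of synaptophysin in non-neuronal cells, ran the other way, at 14.3 and 43.6, 3.05-fold higher in eye (2.66 to 3.49), a call that was lost with equal summed values.

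Ratios of related genes within a library need no scaling between libraries. Here a neuronal or synaptic form is set against a relative that is not particular to neurons. Each ratio of ratios is the quotient of the folds of its 2 genes, so it restates the folds above. Sypl1, Vamp8, Vamp3 and Snap23 are also the genes called higher in eye, so wide distances for their pairs are no separate support. Syp was 34.0 times Sypl1 in retina and 5.37 times in eye, a ratio of ratios of 6.33 (95% interval on the log scale from the reads, 5.54 to 7.24). Vamp2 was 18.0 times Vamp8 in retina and 3.42 times in eye, and 22.5 times Vamp3 in retina and 4.83 times in eye, so that the ratios differed by 5.26 and 4.66. For Snap25 and Snap23 the ratio was 68.0 in retina and 24.1 in eye, 2.82 times apart (2.53 to 3.15). Stx3 was 6.38 times Stx4 in retina and 2.24 times in eye, 2.85 apart (2.61 to 3.10). The values do not show which cells express either of these syntaxins.

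Pairs of forms that are both found in neurons differed less between the libraries. Syt1 was 44.0 times Syt2 in retina and 39.9 times in eye, 1.10 apart with an interval of 0.845 to 1.44 that held 1. Syn1 was 2.44 and 2.75 times Syn2, also with an interval holding 1 (0.735 to 1.07). Cplx1 against Cplx2, Rab3a against Rab3b, Vamp1 against Vamp2 and Sv2a against Sv2b had ratios of ratios of 1.18, 1.24, 1.44 and 1.53, and their intervals lay above 1. Napb, mainly of brain, against Napa, of all cells, also sets a neuronal form against a broad one. This pair was at 0.691 in retina and 0.499 in eye, only 1.39 apart (1.29 to 1.49). That was less than for Vamp1 against Vamp2 or Sv2a against Sv2b.

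**Figure D4:**
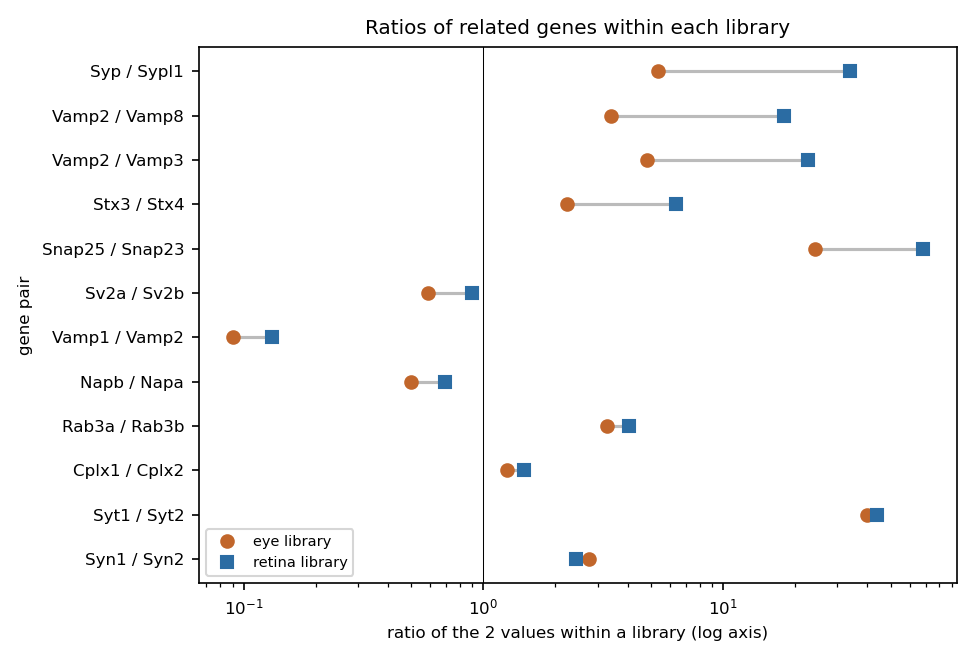
Ratio of the values of 2 related genes within the eye library (circles) and the retina library (squares), on a log axis, for 12 pairs. Pairs are ordered by the retina ratio divided by the eye ratio. Syp against Sypl1 is farthest apart, at 34.0 in retina and 5.37 in eye, and Syn1 against Syn2 is the pair with the higher ratio in eye.

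The order of the genes by abundance was much alike in the libraries, with a Spearman correlation of 0.89 over the 65 tested genes and 0.83 over all tested genes. These points share both libraries, so the correlations only describe them. Of the 69 genes, 18 were in the upper 10% of all genes in retina and 15 in eye. Together they held 1.39% of the summed value of the retina library and 0.559% of that of the eye library, in which 35.9% belonged to lens genes.

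Other genes of the pathway were taken from a list of 151, of which 133 had values and 130 were tested. Of these, 18 (13.8%) were called lower in eye, and 9 (6.92%) were called higher, beside 7.95% and 17.8% of all tested genes. The median log2 fold was -0.28, beside -0.01 over all tested genes. Active zone and priming genes had a median of -0.76 over 40 genes, endocytosis and coat genes -0.58 over 27, other SNAREs and tethers 0.08 over 27, proton pump subunits -0.14 over 20, and other vesicle transporters and membrane proteins -0.37 over 16. The most abundant in retina were Atp6v0c, a subunit of the vesicle proton pump (574 in retina and 394 in eye), Sncb (beta-synuclein, 469 and 230) and Cplx4, a complexin of ribbon synapses (393 and 219). Then came Clta and Ap2m1, of the clathrin coat (368 and 301, 344 and 232), and the pump subunit gene Atp6v0e2 (293 and 160).

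Among pathway genes that reached 10 in either library, Unc13a, the priming factor Munc13-1, was lowest in the eye library, at 16.8 in retina and 4.80 in eye, 3.50-fold lower (3.25 to 3.78). It was followed by Doc2b, a calcium sensor (43.1 and 14), Scamp5, a secretory carrier protein (98.9 and 37.0), and Pacsin1, of vesicle endocytosis (111 and 41.8). At the upper end Sypl2, a synaptophysin relative of skeletal muscle, had a value of 16.2 in eye and was listed at 0 for retina. Sytl1, a synaptotagmin-like Rab27 effector, was at 0.578 in retina and 13.9 in eye, 24-fold higher (18.4 to 31.8). Rab3d, the Rab3 form of exocrine and other secretory cells, was at 3.43 and 21.5, and Rab27a, of melanosomes and secretory granules, at 6.57 and 24.2. Rab3d was 6.27-fold higher in eye (5.60 to 7.03), in contrast to Rab3a, Rab3b and Rab3c.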

How the data were processed

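RNA was measured in eye and retina of Long Evans rats, with groups taken from the tissue named in the sample titles. GSNAP, HTSeq and the rat build rn4 are named per the submitters' processing notes; the sources used here give no versions, settings, annotation or strand use. The deposited values are taken as RPKM, inferred from their fit to whole reads divided by a length and a fixed total. The totals were found by search, and 13760 of 13980 names with at least 6 decimals gave whole reads for eye and retina alike, within what rounding allows. These are the smallest reads that fit the values, and intervals from them leave out variation between animals and libraries. No molecular identifiers are named, so a molecule may have been counted more than once.

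Each file held 14533 rows, of which 7 with ND were dropped (none a member), and of 41 repeated names the row with more decimals was kept. The search and the calls were tested on simulated data. The members and lists were chosen with earlier results of these data known. Every member was to be given with its values, with folds for called genes, family leaders and paralog pairs. For the other pathway genes the rule took the 6 most abundant in retina and, at a value of at least 10, the 4 highest and 4 lowest folds. Alternatives were 1 or 0.01 in place of 0.1, a minimum of 5 or none, a fold of 4, other scalings, and leaving out rows of few decimals. The scalings were totals without lens genes, equal summed values, a median of ratios and a trimmed mean, the last 2 computed on the RPKM values. Reads of paralogs and overlapping genes may be shared, as the counting rules are not stated. Python 3.11.15, SciPy 1.17.1 and pandas 2.3.3 were used. Some genes that the rule took are counted but not named, as they are not reported here.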

Additional observations from a re-analysis of the deposited data

How the results depend on the processing

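Adding 1 to each value left 7 of the 12 genes called lower in eye (10.8% of those tested, against 4.94% of all tested genes). A fold of 4 left 0, against only 0.0905% of all tested genes, and totals without lens genes left 3 (4.62%, against 4.12%). Equal summed values gave 39, which had to hold all 12, as that scaling lowered every eye value. Of the 6 genes called higher, 1 added to each value left 5 (7.69%, against 14.4% of all tested genes). Syt8 lost its call there, and a minimum of 5 left it out. A fold of 4 left 1 (Vamp5, 1.54% against 9.07%), and equal summed values left 3 (4.62% against 11.5%). The median log2 fold of -0.51 became -0.31 without lens genes in the totals and -1.14 with equal summed values. These shifts follow from how the settings are built, since a scaling moves all ratios alike (by 0.20 and -0.64 on the log2 scale before 0.1 is added). Under 0.01 added, no minimum, a minimum of 5, the trimmed mean, the median of ratios and no rows of few decimals, both counts stayed within 1.5 times. No called gene changed sign under any alternative run, whereas 4 uncalled genes did so without lens genes in the totals and 11 did so under equal sums. For called genes this was fixed in advance. A log2 shift of -0.64 is smaller than a fold of 2, and the settings other than scalings cannot turn a sign. The paralog ratios stayed within their intervals with 1 or 0.01 added. No paired analysis was possible because each tissue has a single column of values, and for the same reason leaving out each technical replicate was not run. By the smallest reads that fit, depth limits Syt8, Stx11, Stx19, Syt10 and Vamp5 most, with at most 30 reads in 1 of the libraries.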

Other observations

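Transporters that load vesicles with other transmitters were looked at after their values were seen. Slc32a1, which loads GABA and glycine, had values of 62.7 for retina and 23.7 for eye, a log2 fold of -1.40, close to the -1.43 of Slc17a7. Slc18a3, which loads acetylcholine, was at 5.17 and 1.97, and Slc30a3, a zinc transporter of vesicles, at 5.21 and 2.29. Slc17a6 (VGLUT2), the glutamate transporter of ganglion cells, was not called, at 19.5 and 13.9, nor was Slc17a8 (VGLUT3), at 1.36 and 0.981. The monoamine transporter genes Slc18a2 and Slc18a1, at 1.99 and 2.01 and at 1.64 and 0.802, were not called either. Slc17a9, which loads nucleotides, was called higher in eye, at 0.381 and 1.46.

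Scaffold genes of the active zone were likewise chosen after their values were seen. Bsn (bassoon), which anchors ribbons and active zones, had values of 7.81 for retina and 3.10 for eye, and Rimbp2, which links calcium channels to release sites, at 6.0 and 2.62, both called lower. Rims4, Ppfia3, Ppfia4 and, as above, Unc13a were among the other active zone and priming genes called lower. Of 40 such genes tested, 8 (20%) were called lower and 5 (12.5%) higher, beside 7.95% and 17.8% of all tested genes. Among those not called were Pclo, at 5.89 and 3.19, Rims1, at 5.86 and 3.95, and Rims2, at 24.2 and 12.6. Erc2, at 3.22 and 1.84, and Erc1, at 3.53 and 3.59, were not called either. Dnm1, the neuronal dynamin that cuts off endocytic vesicles, was at 158 and 61.4 and called lower, while Dnm2, the form of most tissues, was at 24.5 and 24.3 and Dnm3 at 11.9 and 7.59, neither called.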
